A study of Mus musculus with 13 samples.

Results

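The histone genes were followed in RNA sequencing of mouse bone marrow cells: every gene named as a member of the Hist1 to Hist4 clusters, which hold the replication-dependent histone genes, and 11 genes for histone variants and linker histones outside them. Of 79 genes matched by name, 75 had at least 10 counts over all 13 libraries and were kept, of 24328 genes in each file. They comprised 64 replication-dependent genes (5 for H1, 16 for H2A, 18 for H2B, 12 for H3 and 13 for H4) and the 11 variant genes. Just below that minimum lay Hist1h1t and Hist2h2ab with 8 counts each, and just above it Hist3h2bb-ps with 15 and Hist3h2ba with 28 counts. Hist1h2aa and Hist1h2ba had no counts.

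The libraries came from wild-type granulocyte-monocyte progenitors (GMP), from leukemia stem cells (LSC) and from mature acute myeloid leukemia cells (mAML), with 1 library each. A further 10 libraries followed LSC under A-485, a compound that blocks histone acetylation by p300 and CBP, for 0, 8, 24, 48 and 72 h, with 2 libraries per time. The 0 h libraries are labelled untreated, and no library received vehicle alone. The leukemia cells are described as murine MLL-AF10 cells grown in medium with serum and WEHI-conditioned medium, and the wild-type or tumor state is the only genotype given. The sources used here do not give strain, age, the number of animals, the way MLL-AF10 was introduced or the dose. Nothing says that the 2 libraries of a time came from separate cultures, so the p-values measure only the spread between these libraries, which may be technical.

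Histones package DNA into nucleosomes, each a core of H2A, H2B, H3 and H4 sealed by a linker histone H1. Replication-dependent histone genes lie in clusters, lack introns and are transcribed mainly during DNA synthesis. Their mRNAs usually end in a conserved stem-loop in place of a poly(A) tail, and the stem-loop binding protein Slbp binds it. Variant histones such as H2A.Z, macroH2A, H3.3, CENP-A and H1.0 are mostly made outside the replication programme as ordinary polyadenylated mRNAs. Some clustered genes can also give polyadenylated mRNAs, known above all from cells that leave the cycle.

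The end of these transcripts bears on what a poly(A)-selected or a total RNA library can count, so the stem-loop is shown here for members that rose or fell under A-485. The histone stem-loop was searched in the form that the capitals in the lines here share, with any base allowed where those lines differ, on the transcript strand of the reference transcripts (GENCODE M21, build GRCm38). It was found in 45 of 21877 protein-coding gene symbols (0.206%), in 41 of the 63 replication-dependent members with a transcript there, and in 1 of 11 variant genes, H2afx. The stem-loop, which in these genes lies downstream of the coding sequence, is in capitals with 5 bases on each side.
Hist1h1c: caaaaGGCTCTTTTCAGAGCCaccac
Hist2h2aa1: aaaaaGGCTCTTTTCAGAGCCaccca
Hist3h2a: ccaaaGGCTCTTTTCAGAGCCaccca
Hist1h1d: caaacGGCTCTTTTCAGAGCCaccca
Hist1h2ao: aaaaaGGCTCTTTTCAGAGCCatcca
Hist1h2bk: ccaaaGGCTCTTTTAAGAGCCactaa
Hist1h3c: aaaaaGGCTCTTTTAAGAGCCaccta
Hist1h4i: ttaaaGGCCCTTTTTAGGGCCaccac
Hist1h4c: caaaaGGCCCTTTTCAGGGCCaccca
H2afx: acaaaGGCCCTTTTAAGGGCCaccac
The stem-loop opened with GGCTC in all 32 members for H1, H2A, H2B and H3 that had it, and with GGCCC in all 9 H4 members and in H2afx. At 72 h, it was found in 3 of the 5 replication-dependent members called higher, 14 of the 23 called lower, 10 of the 11 not called and 14 of the 24 not tested. Of those called higher, Hist1h2bc and Hist2h2be had no match, which says only that these letters are not in the transcripts searched. A poly(A) signal (AATAAA or ATTAAA) in the last 50 bases of a transcript was found for 77.9% of all protein-coding symbols, for 10 of 11 variant genes and for 16 of 63 replication-dependent members. It was found for 3 of the 5 replication-dependent members called higher at 72 h, 1 of the 23 called lower, 5 of the 11 not called and 7 of the 24 not tested. Some reference transcripts without a match are short: those of Hist1h2ai and Hist1h2ak, called lower, have 393 bases and that of Hist1h3h 411. In Hist1h2ao the stem-loop starts at base 434. Such short transcripts may lack the end where both elements lie, so these counts cannot tell a missing element from a missing end. A member can have both: after the stem-loop, the transcript of Hist1h1c ran on for 840 bases and that of Hist3h2a for 1643 bases, against 31 bases for Hist1h2ao. This length did not separate genes that rose from genes that fell. Hist2h2aa1, which rose, had 35 bases after the stem-loop, and Hist1h1d and Hist1h1e, which fell, had 4884 and 1153. The labels give total RNA as the molecule and speak of mRNA profiles, and do not say whether poly(A) RNA was selected.

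Promoters of 68 members (58 replication-dependent) were matched in RefSeq (build GRCm38.p6, 250 bases before to 50 after the start). The motifs searched, on both strands, were CCAAT, the octamer ATTTGCAT, TATAAA, the E2F-type sequences TTTCGCGC and TTTGGCGC, and GGCGGG, none of which contains another. CCAAT stood in 49 of 58 replication-dependent promoters, against 37.9% of 27025 promoters, in every matched promoter for H1 (5), H2A (16), H2B (15) and H3 (10) but in 3 of 12 for H4. The octamer stood in 11 of 58, 6 for H2A and 5 for H2B, against 1.75% of all promoters. TATAAA stood in 32 of 58, against 14.2%. TTTCGCGC stood in 9 of 58, again only for H2A and H2B, against 0.318%, and TTTGGCGC in none. GGCGGG stood in all 10 matched variant promoters, in 18 of 58 replication-dependent ones and in 35.5% of all. Of the replication-dependent members called at 72 h, the octamer was in 1 of 3 matched promoters of genes that rose and in 4 of 23 of genes that fell, and TATAAA in 1 of 3 and 12 of 23. As 1 H2A gene of each kind, Hist3h2a (chr11:58954435-58954734, plus strand), which rose, and Hist1h2ab (chr13:23750838-23751137, plus strand), which fell, are shown with the motifs in capitals. The linker histone genes Hist1h1c (chr13:23738557-23738856, plus strand), which rose, and Hist1h1d (chr13:23554782-23555081, plus strand), which fell, lie in the same cluster.
Hist3h2a: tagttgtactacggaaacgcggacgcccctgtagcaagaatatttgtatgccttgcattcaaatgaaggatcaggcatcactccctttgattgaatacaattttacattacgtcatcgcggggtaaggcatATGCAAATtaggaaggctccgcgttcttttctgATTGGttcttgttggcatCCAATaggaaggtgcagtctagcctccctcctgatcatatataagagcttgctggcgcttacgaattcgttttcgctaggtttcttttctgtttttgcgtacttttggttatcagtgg
Hist1h2ab: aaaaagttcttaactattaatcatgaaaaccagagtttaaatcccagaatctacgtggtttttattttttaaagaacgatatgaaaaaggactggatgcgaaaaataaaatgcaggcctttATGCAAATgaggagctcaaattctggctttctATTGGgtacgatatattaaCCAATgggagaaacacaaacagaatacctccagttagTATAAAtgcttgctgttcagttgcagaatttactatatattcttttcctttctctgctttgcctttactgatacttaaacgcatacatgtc
Hist1h1c: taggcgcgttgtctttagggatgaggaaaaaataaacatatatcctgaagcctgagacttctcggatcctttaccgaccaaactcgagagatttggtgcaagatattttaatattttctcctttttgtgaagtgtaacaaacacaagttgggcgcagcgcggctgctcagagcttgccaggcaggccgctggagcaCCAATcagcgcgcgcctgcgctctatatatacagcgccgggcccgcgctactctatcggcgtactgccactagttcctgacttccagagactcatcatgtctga
Hist1h1d: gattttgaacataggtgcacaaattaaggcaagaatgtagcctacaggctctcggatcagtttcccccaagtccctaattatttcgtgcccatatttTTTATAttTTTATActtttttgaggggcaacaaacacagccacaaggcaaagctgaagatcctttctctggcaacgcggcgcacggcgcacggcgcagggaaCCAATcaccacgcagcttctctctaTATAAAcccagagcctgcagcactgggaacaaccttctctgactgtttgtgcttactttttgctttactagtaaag
Both H2A promoters hold the octamer (as ATGCAAAT) and CCAAT on either strand, and both H1 promoters hold CCAAT. The 2 promoters shown from genes that fell also hold TATAAA, and those shown from genes that rose do not. That contrast belongs to the promoters picked, since TATAAA stood in 1 of 3 and 12 of 23 matched promoters. Only these exact letters were searched, so related forms are not marked. A match is a description of the sequence and no binding was measured.

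Levels are given in CPM, counts scaled to a common library size after TMM scaling, with the SD over 2 libraries. Library totals ran from 6467762 to 9763278 counts in the time course and from 24532513 to 47257637 in the 3 single libraries, so a member at 1 CPM rests on fewer than 10 reads in a time course library. Of the 75 members, 49 were abundant enough to be tested (39 replication-dependent, 10 variant), and 26 were not. Passing that filter required a level somewhere, so members high at 1 time only had to differ, and the counts of calls below describe the tested members and not all of them. The untested members held 319 counts in all at 0 h and 212, 94, 22 and 36 at 8, 24, 48 and 72 h. Replication-dependent genes were short (median 488 nt against 1636 nt for variants) and near-identical: 56 of the 64 had a fractional expected count in some library, which marks reads divided between copies. Their single values are therefore uncertain, and sums over copies are given beside them.

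Per length, in the authors' TPM, H3f3a was the most abundant histone gene at 0 h (1596 and 1432), followed by H2afz (1404 and 1416), and the gap between them was smaller than the spread between the 2 H3f3a values. H2afy (455 and 378) and H3f3b (395 and 409) came next and overlapped, and the most abundant replication-dependent genes were Hist1h4i (74.8 and 46.8) and Hist1h2bc (65.3 and 61.5), which also overlapped. The 11 variants summed to 4443 CPM at 0 h and the 64 replication-dependent genes to 210.0 CPM.

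Of the genes for H2A.Z variants, which mark promoters and enhancers, H2afz fell from 24 h on, and H2afv was called lower at the same times with calls that depended on the scaling at 24 and 72 h. H2afz was at 1008 and 1019 CPM at 0 h, 870 and 968 at 8 h, 385 and 370 at 24 h, 211 and 223 at 48 h, and 290 and 291 at 72 h. All 6 libraries from 24 h on lay below all 4 earlier ones. The log2 change was −0.14 ± 0.09 (SE, adjusted p = 0.239) at 8 h and −2.22 ± 0.09 (adjusted p = 2.81e-06, edgeR quasi-likelihood test) at 48 h. At 72 h it was −1.80 ± 0.09, so 72 h stood above 48 h but far below 0 h. The second H2A.Z gene, H2afv, was at 127 and 119 CPM at 0 h, 134 and 116 at 8 h, 79.2 and 84.6 at 24 h, 57.6 and 62.2 at 48 h, and 66.0 and 67.3 at 72 h. Its log2 change at 48 h was −1.04 ± 0.11 (adjusted p = 0.000116, edgeR), so it fell less than H2afz; that difference was not tested. Its call at 24 h (−0.59) was lost with library-size scaling (−0.28, adjusted p = 0.0634), with the length trend removed (−0.26, adjusted p = 0.0537, edgeR) and on log2(TPM + 1) (−0.07, adjusted p = 0.553, limma), where the call at 72 h was lost as well (−0.17, adjusted p = 0.128). At 8 h it was called higher with library-size scaling (0.34, adjusted p = 0.034, edgeR) and on log2(TPM + 1) (0.46, adjusted p = 0.00369, limma). The medians of all genes under these settings were 0.33 and 0.41, so H2afv lay near them. At 24 h the medians were 0.28 with library size, 0.16 with the length trend removed and 0.43 on log2(TPM + 1), and on the last 0.62 at 72 h.

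Cenpa, which encodes the H3 variant that marks centromeres, fell furthest among the variants. Its 10 libraries read 135 and 169 CPM at 0 h, 159 and 195 at 8 h, 71.0 and 36.8 at 24 h, 4.61 and 11.3 at 48 h, and 5.63 and 5.86 at 72 h. The values at 48 and 72 h lay below every earlier library, and those at 8 h overlapped 0 h. The log2 change was −1.49 ± 0.36 at 24 h (adjusted p = 0.00876, and 0.0569 without 0 h replicate 2) and −4.72 ± 0.44 at 72 h (adjusted p = 5.32e-05, edgeR). H2afx, whose phosphorylated protein marks DNA breaks, was at 205 and 217 CPM at 0 h, 160 and 174 at 8 h, 86.2 and 55.7 at 24 h, 31.8 and 35.0 at 48 h, and 28.9 and 34.0 at 72 h. Each later pair lay below the 0 h pair, and the log2 change reached −2.75 ± 0.20 at 72 h (adjusted p = 1.92e-05, edgeR). H2afx is the 1 variant here whose reference transcripts hold both the stem-loop shown above and a poly(A) signal.

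H2afy, which encodes macroH2A of repressed chromatin, was already lower at 8 h. It was at 689 and 575 CPM at 0 h, 291 and 292 at 8 h, 444 and 402 at 24 h, 374 and 322 at 48 h, and 339 and 320 at 72 h. Its lowest values were thus those of 8 h, with a log2 change of −1.12 ± 0.12 (adjusted p = 0.00029), against −0.94 ± 0.12 at 72 h (adjusted p = 0.00029, edgeR). On the log2(TPM + 1) scale the later falls were smaller and not called (−0.22, adjusted p = 0.147 at 72 h, limma), on a scale where the median of all genes moved by 0.62. Its paralog H2afy2 stayed between 0.949 and 7.66 CPM in all 10 libraries, with overlapping times and no call.

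H1f0 encodes the linker histone H1.0, which accumulates in cells that stop dividing. It was at 242 and 331 CPM at 0 h, 614 and 734 at 8 h, 715 and 735 at 24 h, 600 and 623 at 48 h, and 529 and 537 at 72 h. All 8 treated libraries lay above both 0 h libraries. The log2 change was 1.23 ± 0.15 at 8 h (adjusted p = 0.000509) and 0.90 ± 0.15 at 72 h (adjusted p = 0.00119, edgeR). Among variants it was the 1 gene called higher at all 4 times in that test. The other linker variant, H1fx, had at most 0.125 CPM in the time course and was not tested.

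The H3.3 genes H3f3a and H3f3b encode the same replacement H3 from separate loci; whether their courses differed was not tested. H3f3b was at 610 and 633 CPM at 0 h, 953 and 974 at 8 h, 622 and 725 at 24 h, 506 and 541 at 48 h, and 538 and 523 at 72 h. In the main test it was called higher at 8 h only (0.63 ± 0.10, adjusted p = 0.0017), and 72 h lay below 8 h (−0.86 ± 0.10, adjusted p = 0.000456, edgeR). At 24 h it was also called higher with library size alone (0.42, adjusted p = 0.0072) and with the length trend removed (0.38, adjusted p = 0.0149, edgeR). On log2(TPM + 1) it was called higher at 24, 48 and 72 h (0.63, 0.43 and 0.48, adjusted p of 0.000564, 0.00302 and 0.00156, limma). The median of all genes on that scale was 0.43, 0.57 and 0.62, so H3f3b lay below it at 48 and 72 h. H3f3a was at 1156 and 1039 CPM at 0 h, 883 and 701 at 8 h, 965 and 801 at 24 h, 864 and 836 at 48 h, and 737 and 807 at 72 h. Its log2 change was −0.51 ± 0.14 at 72 h (adjusted p = 0.0139, edgeR), but it was 0.11 once a trend with gene length was removed and 0.19 on log2(TPM + 1). The medians of all genes under these settings were 0.25 and 0.62, above both H3f3a values. With library size alone (−0.14), without 0 h replicate 1 (−0.39) or without 72 h replicate 1 (−0.44) it was not called, so neither its direction nor its call held under every setting. H2afj, an H2A variant gene, was lower at 8 h (199 and 205 CPM against 296 and 305) and back at 271 and 302 CPM by 72 h. Its call at 8 h (−0.58 ± 0.15, adjusted p = 0.0142, edgeR) was lost with library-size scaling (−0.26), on log2(TPM + 1) (−0.13) and without any 1 of the 4 libraries compared, with adjusted p of 0.0677 and 0.0844 without 0 h replicates 1 and 2 and 0.0521 and 0.0502 without 8 h replicates 1 and 2.

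**Figure D1:**
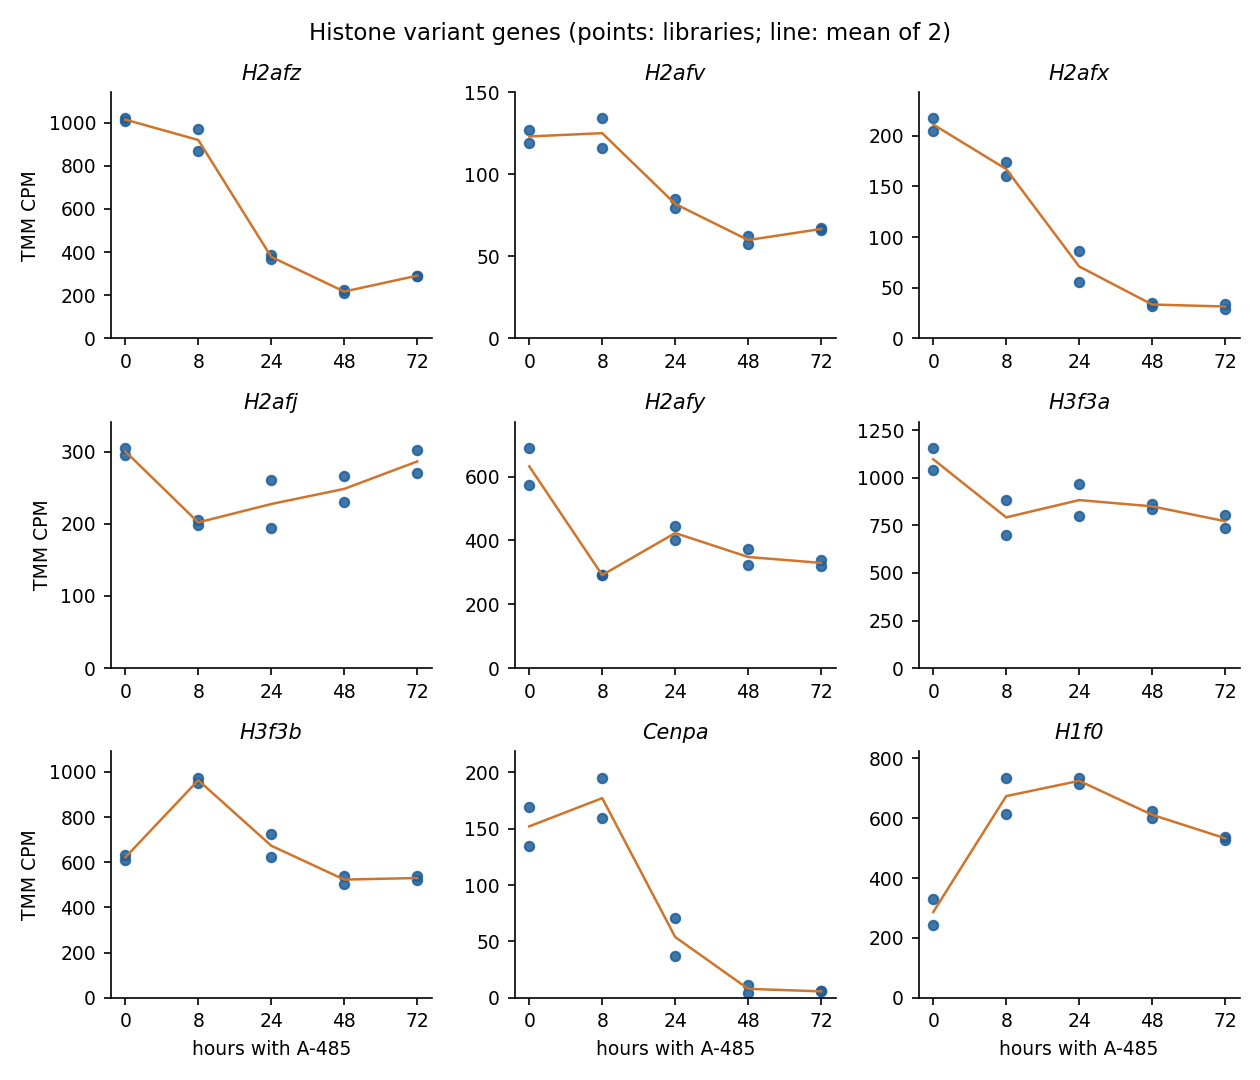
CPM after TMM scaling (vertical axes, from 0) of the 9 variant genes above 10 CPM against hours with A-485, with a point for each library and a line through the mean of 2. H2afz, H2afv, H2afx and Cenpa drop after 8 h, H1f0 and H3f3b are higher at 8 h, and H2afy is lowest at 8 h.

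At 8 h, 4 of the 49 tested members were called higher (8.16%, against 17.9% of all 11119 genes tested) and 6 lower (12.2%, against 21.0%). Those 8 h counts became 8 higher and 3 lower with library size alone, and 10 each of 71 members by limma on log2(TPM + 1). Under these settings the median of all genes at 8 h was 0.33 and 0.41. At 24 h, 6 were higher (12.2%, against 23.2%) and 26 lower (53.1%, against 27.1%). At 48 h, 6 were higher (background 25.2%) and 28 lower (57.1%, against 30.5%), and at 72 h 6 were higher (background 25.9%) and 29 lower (59.2%, against 29.4%). From 24 h on the share called lower was thus above that of all genes and the share called higher below it. Members that passed the filter through 0 h alone could only be lower later, so the share called lower was partly set by the filter. The median log2 change of the tested members was −0.54, −1.57, −2.54 and −2.51 at 8, 24, 48 and 72 h, against 0.01, −0.03, −0.04 and −0.02 over all genes tested. The count of 6 at 8 h fell to 2 without either 0 h library or without 8 h replicate 2 and to 3 without 8 h replicate 1. The count of 26 at 24 h fell to 17 without 0 h replicate 1 and to 16 once a trend with gene length was removed.

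The members called lower at 24, 48 and 72 h alike numbered 23 (46.9%, against 23.4% of all genes tested), of which 18 were replication-dependent and the others Cenpa, H2afv, H2afx, H2afy and H2afz. Those called higher at all 3 times numbered 6 (12.2%, against 19.2%): H1f0 and the replication-dependent genes Hist1h1c, Hist2h2aa1, Hist3h2a, Hist1h2bc and Hist2h2be. These 5 and Hist1h4i were also the only replication-dependent genes to reach 10 CPM in any library. In bulk RNA, fewer cells making a histone mRNA and less of it per cell cannot be told apart.

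Hist1h1c, for the linker histone H1.2, was at 15.3 and 12.5 CPM at 0 h, 17.3 and 30.2 at 8 h, 35.9 and 72.6 at 24 h, 65.0 and 75.6 at 48 h, and 96.4 and 92.5 at 72 h. Every treated library was above both 0 h libraries. The log2 change was 0.77 ± 0.36 at 8 h (adjusted p = 0.121) and 2.76 ± 0.36 at 72 h (adjusted p = 0.000332, edgeR), a 6.76-fold difference. Hist2h2aa1, an H2A gene of the Hist2 cluster, was at 11.7 and 14.9 CPM at 0 h, 16.7 and 20.7 at 8 h, 21.0 and 39.5 at 24 h, 48.0 and 42.5 at 48 h, and 73.3 and 64.1 at 72 h. Its groups did not overlap 0 h at any time, and the log2 change at 72 h was 2.37 ± 0.29 (adjusted p = 0.00024, edgeR); the call at 24 h (1.18) was lost without 0 h replicate 1 (1.05, adjusted p = 0.0652). Its copy Hist2h2aa2 was at most at 2.73 CPM, and the pair summed to 13.8 ± 1.54 CPM at 0 h and 69.7 ± 6.49 at 72 h (SD, n = 2). Exchange of reads with other H2A genes was not tested.

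Hist1h2bc, an H2B gene, was called higher at every time from 8 h on. It was at 20.0 and 20.5 CPM at 0 h, 66.5 and 54.7 at 8 h, 63.8 and 52.7 at 24 h, 68.3 and 57.2 at 48 h, and 71.1 and 69.9 at 72 h. The log2 change was 1.58 ± 0.16 at 8 h (adjusted p = 0.000226) and 1.80 ± 0.16 at 72 h (adjusted p = 4.76e-05), and 72 h against 8 h gave 0.22 ± 0.15 (adjusted p = 0.312, edgeR). Hist2h2be, the other H2B gene of the 5, lay below 0 h at 8 h in both libraries and above it later: 26.2 and 20.5 CPM at 0 h, 19.9 and 15.2 at 8 h, 39.3 and 34.9 at 24 h, 34.3 and 36.7 at 48 h, and 36.1 and 42.3 at 72 h. The log2 change at 72 h was 0.75 ± 0.19 (adjusted p = 0.00996), and it was not called without 0 h replicate 2 (0.62, adjusted p = 0.0603) or without 72 h replicate 2 (0.63, adjusted p = 0.062, edgeR). Leaving out 0 h replicate 2 also ended its calls at 24 h (0.53, adjusted p = 0.101) and 48 h (0.49, adjusted p = 0.114, edgeR). So did leaving out replicate 1 of 24 h (0.58, adjusted p = 0.0735) for the first, and either library of 48 h for the second (0.65 and 0.55, adjusted p of 0.0688 and 0.107 in edgeR). Hist3h2a, an H2A gene outside the main clusters, stood at 4.08 and 7.38 CPM untreated, 9.67 and 11.8 at 8 h, 15.8 and 19.2 at 24 h, 12.2 and 17.8 at 48 h, and 15.8 and 19.0 at 72 h. Its log2 change at 72 h was 1.61 ± 0.33 (adjusted p = 0.00347, edgeR), and its call at 48 h (1.39) was lost without 48 h replicate 2 (1.09, adjusted p = 0.0534).

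Hist1h4i was the 1 gene of this abundance that was called higher at 8 h only. It was at 9.14 and 5.71 CPM at 0 h, 16.6 and 18.4 at 8 h, 5.40 and 9.61 at 24 h, 4.06 and 4.21 at 48 h, and 6.89 and 4.90 at 72 h. Only the 8 h pair stood clear above 0 h, by 1.23 ± 0.36 on the log2 scale (adjusted p = 0.0261, edgeR); leaving out 0 h replicate 2 or either 8 h library ended that call, with adjusted p of 0.139, 0.0523 and 0.101. H4 copies encode the same protein, so its value may include reads of other H4 genes.

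**Figure D2:**
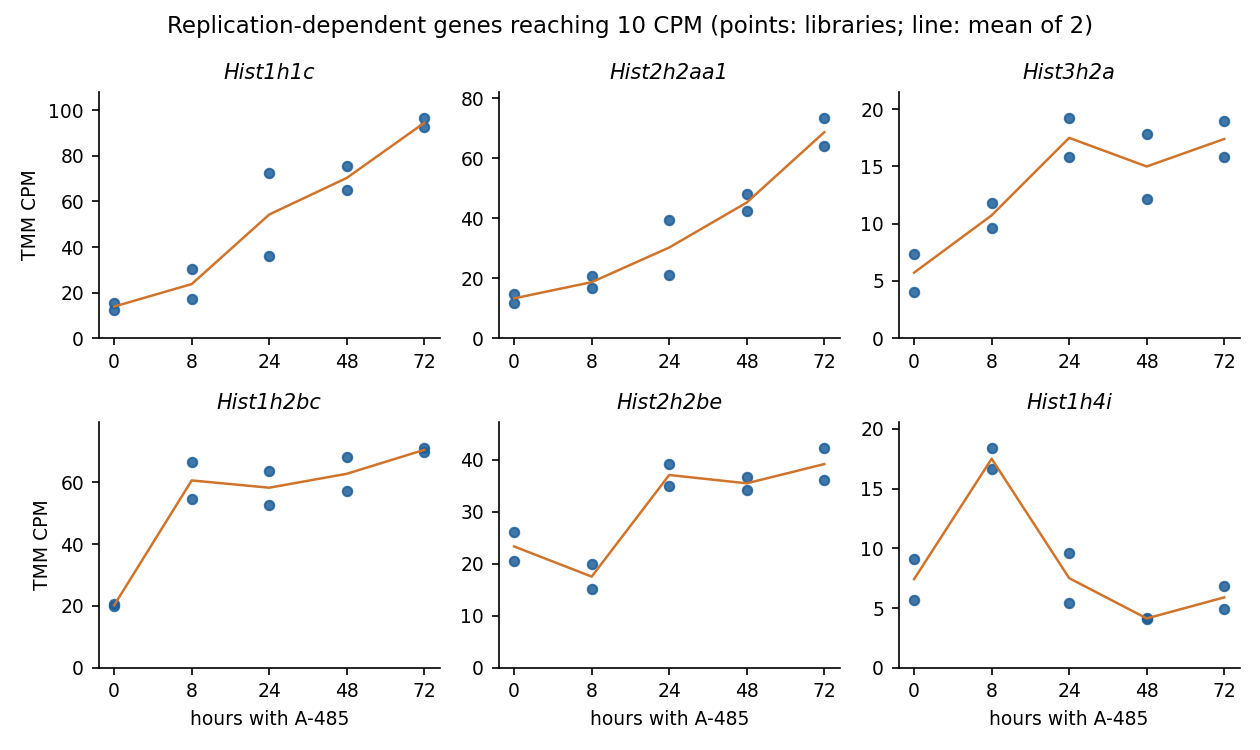
CPM after TMM scaling (vertical axes, from 0) of the 6 replication-dependent genes that reached 10 CPM in a library, against hours with A-485, with a point for each library and a line through the mean of 2. Hist1h1c and Hist2h2aa1 climb through 72 h, Hist1h2bc is already high at 8 h, and Hist1h4i is high at 8 h only.

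The other tested replication-dependent genes mostly fell, many to no count at all. Of the 39 tested, 23 were called lower at 72 h (59.0%, against 29.4% of all genes tested) and 5 higher (12.8%, against 25.9%). Some of the 39 passed the filter through 0 h alone, such as Hist1h2ah (1.61 and 2.23 CPM at 0 h, at most 0.56 later). Such genes could only be lower later, so part of the share called lower was set by the filter. By class, 4 of 5 for H1, 8 of 11 for H2A, 2 of 6 for H2B, 6 of 9 for H3 and 3 of 8 for H4 were lower. The shares for H2B (33.3%) and H4 (37.5%) were thus near that of all genes. Of all 64 replication-dependent members, 4 had no count at 0 h in both libraries together, 2 at 8 h, 9 at 24 h, 26 at 48 h and 25 at 72 h. The median log2 change of the 39 was −0.88, −2.67, −3.40 and −2.79 at 8, 24, 48 and 72 h. Where genes at 0 were set to the bound that a floor of 3 counts over the 2 libraries gives, it was −3.06 at 48 h and unchanged at −2.79 at 72 h.

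Among linker histone genes, Hist1h1d was at 8.52 and 6.55 CPM at 0 h and already at 0.691 and 1.68 at 8 h, then at 0.376 and 0.239 at 72 h. It was called lower at 8 h (−2.65 ± 0.64, adjusted p = 0.0119, but 0.0704 without 0 h replicate 1 and 0.0585 without 8 h replicate 1) and at 72 h (−4.55 ± 0.76, adjusted p = 0.00118, edgeR). Hist1h1e started at 8.15 and 8.50 CPM, passed 3.34 and 5.04 at 8 h and ended at 0.626 and 1.32. Hist1h1a had 27 counts at 0 h and none at 72 h, at least 9.63-fold lower, and Hist1h1b had 41 and 1, a ratio of 43.9 with a 95% counting interval of 7.45 to 1775. Thus 4 of the 5 linker histone genes of the Hist1 cluster fell while Hist1h1c, in the same cluster, rose.

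Of the H2A genes, Hist1h2ao held 98 counts over the 0 h libraries (7.29 and 5.43 CPM), 36 at 8 h (1.84 and 2.24 CPM) and none at 48 or 72 h. It was at least 35.0-fold lower at 72 h, and it was called at 8 h as well (−1.63 ± 0.51, adjusted p = 0.043, edgeR), a call lost without any 1 of the 4 libraries compared (adjusted p of 0.215, 0.11, 0.15 and 0.125 without 0 h replicates 1 and 2 and 8 h replicates 1 and 2). Hist1h2ap, also called at 8 h (−2.88 ± 0.86, adjusted p = 0.0321, edgeR, and 0.203 without 0 h replicate 2 and 0.149 without 8 h replicate 2), went from 58 counts to none at 72 h. Hist1h2ai, Hist1h2ag, Hist1h2ab and Hist1h2ah held 56, 41, 38 and 29 counts at 0 h and none at 72 h, at least 20.0-, 14.6-, 13.6- and 10.3-fold lower. No tested H2A gene of the Hist1 cluster was called higher at any time, while Hist2h2aa1 and Hist3h2a, which lie outside that cluster, were.

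Of the H2B genes, Hist1h2bk fell from 67 counts to 1 between 0 and 72 h, a ratio of 71.7 with an interval of 12.4 to 2874, and Hist1h2bh from 33 to 1, a ratio of 35.3 with an interval of 5.91 to 1437. The Hist1h2bh call was lost without 0 h replicate 2 (adjusted p = 0.0725) or without 72 h replicate 2 (adjusted p = 0.0756, edgeR). For H3, Hist1h3c went from 84 counts to 3 (30.0-fold, interval 9.91 to 148), and Hist1h3h and Hist1h3g from 66 and 51 to none, at least 23.5- and 18.2-fold lower. For H4, Hist1h4b went from 42 counts to none, at least 15.0-fold lower, Hist1h4n from 47 to 7 and Hist1h4c from 31 to 8. The Hist1h4c call at 72 h (−2.00 ± 0.69, adjusted p = 0.0404, edgeR) was among the least stable: it was lost with library size alone (adjusted p = 0.073) and on leaving out 0 h replicate 1 or 2 (0.242 and 0.057) or 72 h replicate 1 or 2 (0.122 and 0.131). The H2B genes Hist1h2be and Hist1h2bg stayed in the libraries, with 20 and 37 counts at 72 h against 20 and 71 at 0 h.

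The H3 genes of the Hist2 cluster are near-copies among which reads may be shared. Hist2h3c1 had no count at 0 h and 58 at 72 h, while its near-copy Hist2h3c2 went from 108 to 21 and Hist2h3b from 49 to 2. Neither Hist2h3c1 nor Hist2h3c2 was called at any time. Summed over the 3 genes the level was 10.1 ± 4.98 CPM at 0 h, 3.51 ± 0.733 at 8 h and 4.93 ± 1.31 at 72 h (SD, n = 2), so the apparent rise of Hist2h3c1 was not one of the copies together.

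**Figure D3:**
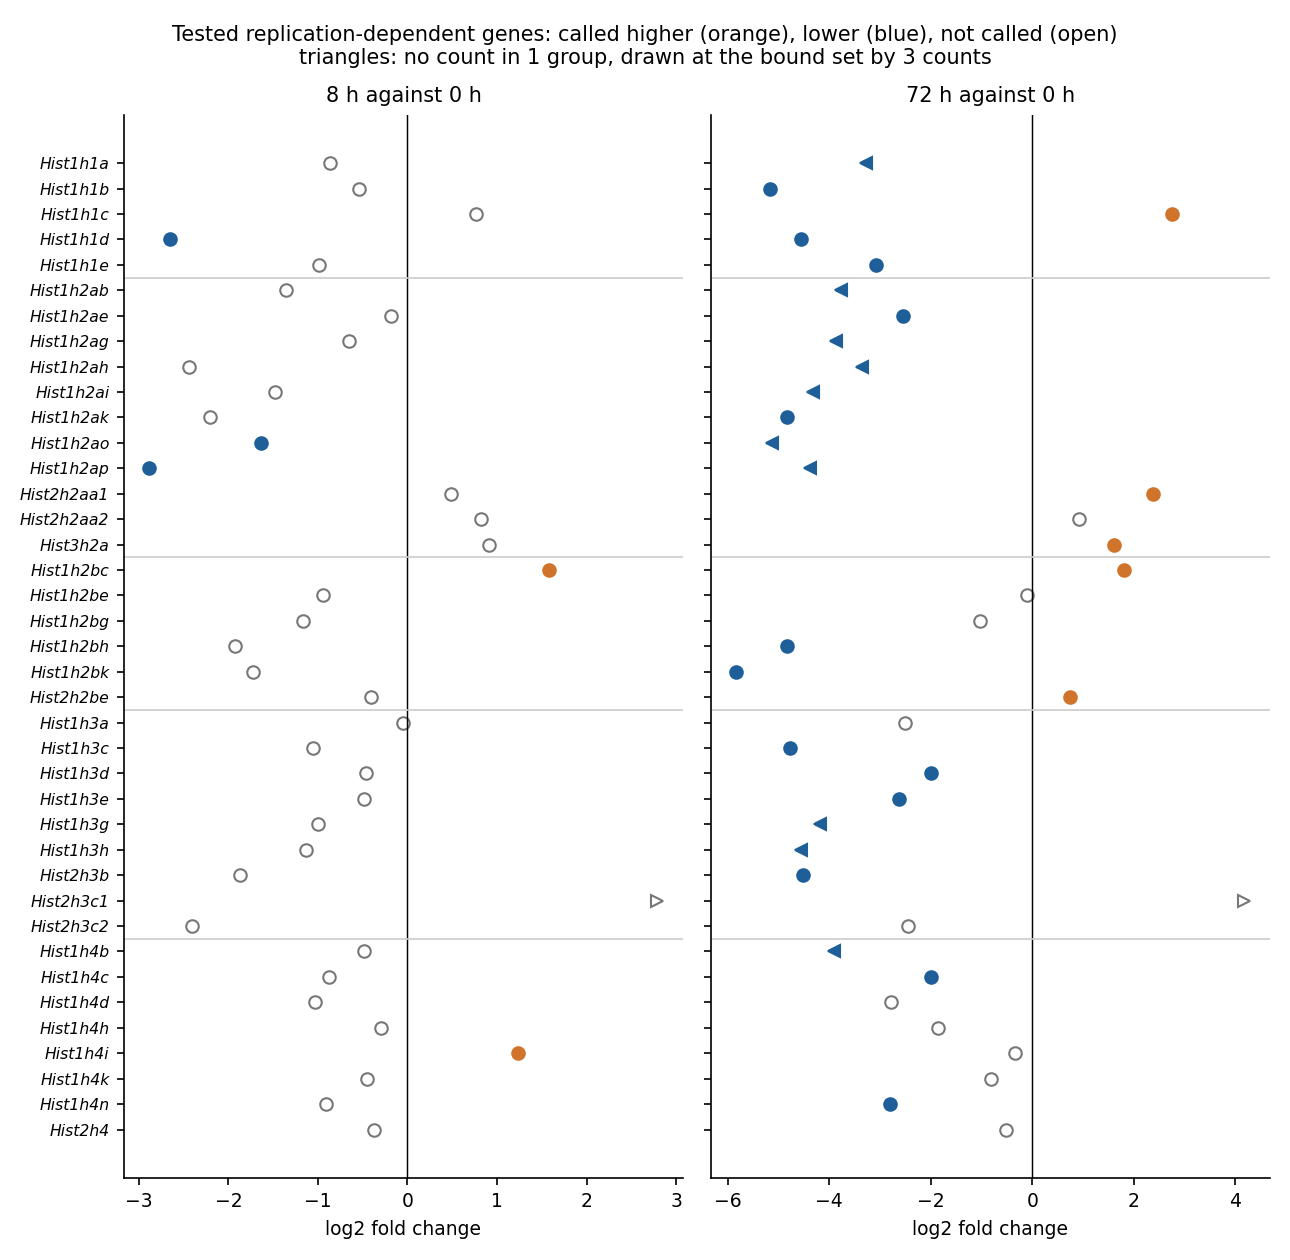
Log2 fold change against 0 h (horizontal axes) of the 39 tested replication-dependent genes at 8 h (left) and 72 h (right), grouped as H1, H2A, H2B, H3 and H4 from the top. Orange and blue mark genes called higher and lower, open symbols genes not called, and triangles genes with no count in 1 group, drawn at the bound set by 3 counts; 5 genes are orange and 23 blue at 72 h.

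The summed level of all 64 genes contains these opposite changes. It was 210.0 ± 32.4 CPM at 0 h, 209 ± 13.7 at 8 h, 233 ± 36.5 at 24 h, 248 ± 1.65 at 48 h and 315 ± 2.49 at 72 h. The 5 genes called higher, chosen on these same values, made up 76.6 ± 1.11 CPM of it at 0 h, 131 ± 1.81 at 8 h, 197 ± 30.5 at 24 h, 229 ± 1.49 at 48 h and 290.0 ± 3.41 at 72 h. The other 59 made up 133 ± 31.3 CPM at 0 h, 78.1 ± 11.9 at 8 h, 35.2 ± 5.94 at 24 h, 18.9 ± 3.14 at 48 h and 25.2 ± 0.917 at 72 h. The share of the 5 genes among replication-dependent counts therefore went from 36.3% to 62.7%, 84.9%, 92.3% and 92.0%. These sums are a description of genes already sorted by their change and carry no test.

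By class, the summed level of the remaining H2A genes went from 31.4 ± 0.303 CPM at 0 h to 1.89 ± 0.198 at 72 h, and the remaining H1 genes from 20.4 ± 0.150 to 1.34 ± 0.303. The remaining H2B genes went from 20.7 ± 5.38 to 4.74 ± 1.92 CPM. H3 had no gene called higher and went from 34.9 ± 17.7 to 6.77 ± 1.43 CPM, and H4 from 25.8 ± 8.09 through 30.0 ± 3.74 at 8 h to 10.4 ± 2.93. The class totals at 72 h thus no longer stood in the proportions of 0 h: H1, H2A and H2B totals were 95.8 ± 2.49, 88.0 ± 3.97 and 114 ± 5.47 CPM, nearly all from the 5 genes, beside the small H3 and H4 totals.

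**Figure D4:**
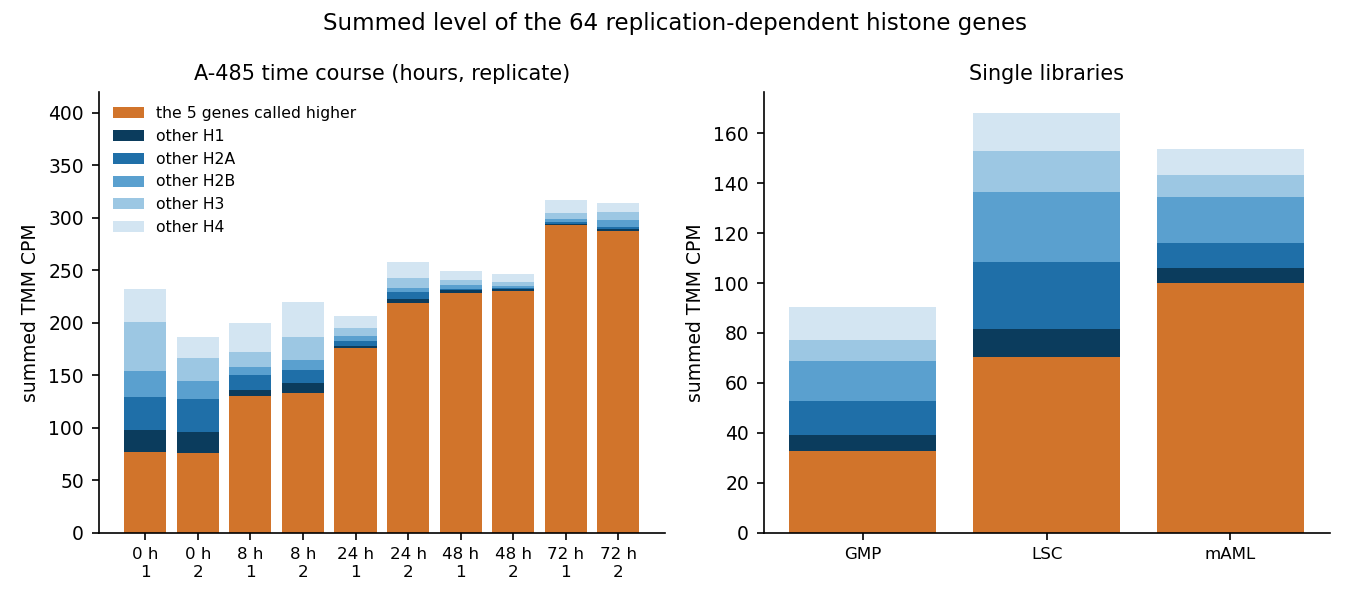
Summed CPM after TMM scaling (vertical axes, from 0) of the 64 replication-dependent histone genes in each time course library (left) and each single library (right), stacked as the 5 genes called higher (orange) and the other genes by class (blue shades). The orange part grows from 76.6 to 290.0 CPM while the blue parts shrink from 133 to 25.2 CPM between 0 and 72 h.

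Between 8 and 72 h, 4 tested members were called higher (8.16%, against 15.1%) and 18 lower (36.7%, against 17.2%). The count of 18 became 10 without 72 h replicate 1, 11 without 72 h replicate 2, and 31 of 71 members by limma on log2(TPM + 1). Those higher were Hist1h1c (1.99 ± 0.35, adjusted p = 0.00314), Hist2h2aa1 (1.88 ± 0.28, adjusted p = 0.00167), Hist2h2be (1.16 ± 0.19, adjusted p = 0.00257) and H2afj (0.51 ± 0.15, adjusted p = 0.0273, edgeR), the last not without any 1 of the 4 libraries compared (adjusted p of 0.0962, 0.0739, 0.0516 and 0.141 without 8 h replicates 1 and 2 and 72 h replicates 1 and 2). Hist1h4i was lower at 72 h than at 8 h (−1.57 ± 0.36, adjusted p = 0.0117, edgeR, and 0.084 without 72 h replicate 2), as were Cenpa (−4.94 ± 0.44) and H2afz (−1.66 ± 0.09).

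Of 21 tested genes of histone mRNA processing, 4 were higher and 1 lower at 8 h, 2 and 8 at 24 h, 3 and 9 at 48 h, and 2 and 5 at 72 h. Their median log2 change was 0.12, −0.19, −0.30 and −0.09. Of all genes tested, 17.9%, 23.2%, 25.2% and 25.9% were higher and 21.0%, 27.1%, 30.5% and 29.4% lower at these times. Slbp, which binds the stem-loop, was at 125 and 113 CPM at 0 h, 145 and 106 at 8 h, 82.3 and 53.0 at 24 h, 69.1 and 68.8 at 48 h and 61.7 and 73.9 at 72 h, a log2 change of −0.81 ± 0.22 at 72 h (adjusted p = 0.0136, edgeR) that was not called with library size alone (−0.44, adjusted p = 0.111). Lsm11, part of the U7 particle that cleaves histone pre-mRNA, was called lower at 72 h (−0.85 ± 0.28, adjusted p = 0.0301, and 0.168 with library size alone), and its partner Lsm10 was not (0.07 ± 0.20). Npat, the coactivator of histone gene transcription, and Casp8ap2 (FLASH), which acts in both steps, had changes of 0.28 ± 0.16 and −0.09 ± 0.18 at 72 h and were not called, though Npat was called higher with library size alone (0.65, adjusted p = 0.00556, edgeR). Cstf2t and Zfp384 were the 2 higher at 72 h (0.61 ± 0.11 and 0.55 ± 0.11), and Sympk, a scaffold of the cleavage complex, was at −0.53 ± 0.11 (−0.17 and not called with library size alone, 0.18 on log2(TPM + 1)). Over all genes the 72 h medians under those 2 scalings were 0.35 and 0.62.

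Chaperones that load new histones behind the replication fork fell. Chaf1a and Chaf1b, subunits of CAF-1, changed by −3.49 ± 0.28 and −2.23 ± 0.19 on the log2 scale at 72 h (adjusted p = 2.93e-05 and 4.12e-05). Asf1b changed by −3.85 ± 0.40 and its paralog Asf1a by −0.95 ± 0.13, and Nasp, which stores H3 and H4, by −2.30 ± 0.16 (adjusted p = 1.73e-05, edgeR). Hjurp, the loader of CENP-A, read 164 and 170 CPM untreated and 36.6 and 42.1 at 72 h (−2.09 ± 0.27, adjusted p = 0.00029, edgeR). Of the chaperones of H3.3, Atrx was higher (0.89 ± 0.13, adjusted p = 0.000599) and Daxx was not called (0.05 ± 0.12) except with library size alone (0.41, adjusted p = 0.0165). Hira was at −0.38 ± 0.12, at −0.02 with library size alone and at 0.32 on log2(TPM + 1). Over all genes the medians under these scalings were 0.35 and 0.62. For H2A.Z, the remover Anp32e was lower (−0.89 ± 0.13) as was the remodeller subunit Ruvbl2 (−1.96 ± 0.13), while Srcap, the exchange ATPase, chosen after its values were seen, was higher (1.10 ± 0.14, adjusted p = 0.000281, edgeR). Of 37 tested chaperones and exchange factors, 2 were higher and 8 lower at 8 h, 7 and 26 at 24 h, 7 and 25 at 48 h, and 6 and 26 at 72 h, with medians of −0.10, −0.87, −1.08 and −0.95. Nap1l1, a chaperone of H2A and H2B, was among the lower ones (−1.54 ± 0.11). Of all genes tested, 17.9%, 23.2%, 25.2% and 25.9% were higher at the 4 times. The shares lower were 21.0%, 27.1%, 30.5% and 29.4%.

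Genes of DNA replication fell over the same hours. Of 44 tested S phase genes, 12 were lower at 8 h, 43 at 24 and 48 h and 44 at 72 h, and none was higher, with medians of −0.26, −2.03, −3.14 and −2.90. Over all genes tested, 21.0%, 27.1%, 30.5% and 29.4% were lower at 8, 24, 48 and 72 h. Pcna, the sliding clamp, was at 405 and 342 CPM at 0 h, 348 and 310 at 8 h, 119 and 124 at 24 h and 108 and 106 at 72 h, and Cdc45, Mcm3 and Rrm2 were at −4.46 ± 0.18, −3.58 ± 0.18 and −6.34 ± 0.33 on the log2 scale at 72 h. Of 20 genes of G2 and mitosis, none was called at 8 h, where the median was 0.52, and all 20 were lower at 48 and 72 h; Mki67, a proliferation marker, read 703 and 726 CPM untreated, 816 and 1096 at 8 h and 3.13 and 5.62 at 72 h. Whether the part of the cells in S phase accounts for the fall of the histone genes was not tested. The drug targets Ep300 and Crebbp, measured as mRNA, rose by 1.71 ± 0.14 and 1.89 ± 0.13 at 72 h.

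Other features moved with time beside these results, and their part in them was not tested. The nuclear RNAs Malat1 and Neat1 summed to 436 and 453 CPM at 0 h and 3505 and 5238 at 72 h. The listed non-polyadenylated RNAs, of which 118 to 120 of 123 were at 0 in each time course library, summed to 12351 and 5383 CPM at 0 h and 3982 and 4573 at 72 h. Of the 3 abundant enough to test, 1 was called lower at 72 h. The 12 T and NK cell markers summed to 98.1 and 53.3 CPM at 0 h and 2.75 and 2.99 at 72 h, the 8 B cell markers to at most 2.02 CPM in any of the 10 libraries, and the 12 erythroid markers to 98.6 and 101 CPM at 0 h, 32.6 and 119 at 8 h and at most 2.0 at 72 h. The 7 megakaryocyte markers summed to 433 and 362 CPM at 0 h, 191 and 472 at 8 h and 56.2 and 22.5 at 72 h, and the 8 stromal and endothelial markers to 1017 and 902 at 0 h and to 398 and 235 at 72 h. These sums rest on part of each list. In each 0 h library, 10 of the 12 T and NK cell, 9 of the 12 erythroid and 3 of the 7 megakaryocyte markers were under 1 CPM. Of the 8 stromal and endothelial markers, 6 and 5 were. The 7 markers listed for the labelled stem cells were Kit, Hoxa9, Meis1, Hoxa10, Mpo, Elane and Itgam. They were all detected at 0 h and summed to 5281 and 4279 CPM, against 967 and 702 at 8 h and 1222 and 1146 at 72 h, where 2 of the 7 were called higher and 4 lower (median −0.35). In the single libraries, scaled apart, they summed to 27846 CPM in GMP, 19078 in LSC and 2248 in mAML. Their sum therefore does not set LSC apart from GMP. The 8 mature myeloid markers summed to 355 and 236 CPM at 0 h, where 3 and 5 of them were under 1 CPM, and to 44.3 and 25.7 at 72 h. TMM factors were 0.830 and 0.832 at 0 h and 1.03 to 1.07 later. With library size alone the median log2 change of all genes against 0 h was 0.28 to 0.35, against −0.04 to 0.01 with TMM. Under that scaling the calls of Hist1h4c and H3f3a at 72 h were lost, and those of the other histone genes named by the fixed rule were kept with the same sign.

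In the single libraries, which have no replicates and no test, the 64 replication-dependent genes summed to 90.3 CPM in GMP, 168 in LSC and 154 in mAML. The 11 variants summed to 3701, 4269 and 4009 CPM. Between LSC and GMP, 55 members reached 1 CPM in the higher library; 22 were at least 2-fold higher in LSC (40.0%, against 13.1% of all 11362 genes) and 5 at least 2-fold lower (9.09%, against 12.4%). The median log2 ratio was 0.80, against 0 over all genes considered. Of the 44 replication-dependent genes considered, 20 were higher and 2 lower, but most of the 20 passed the minimum through LSC alone, where they had to be high. Of the 24 that reached 1 CPM in both libraries, a filter chosen after seeing the data, 6 were higher and 0 lower. Over all members that filter left 34, with 8 higher and 2 lower, and a minimum of 10 CPM in the higher library left 4 higher and 1 lower. No share of all genes is given for these filters, so their counts cannot be read as an excess over all genes. S phase genes summed to 7618, 5510 and 4176 CPM in the same order, and the listed non-polyadenylated RNAs to 1240, 1664 and 2235.

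Among the largest ratios of LSC to GMP were those of Hist1h2ac (3.87 against 0.531 CPM, 2.56 [2.07, 3.77], log2 ratio with its 95% counting interval) and Hist1h2bn (84 counts against 6, 2.56 [2.01, 4.68]). Hist1h3i had 57 counts in LSC and 2 in GMP, and Hist1h4n 61 and none. Hist1h2ap followed with 2.53 [1.99, 4.44], and the copies Hist1h2bq and Hist1h2br had the same values (3.77 against 0.569 CPM, 2.45 [1.96, 3.60]), which is what reads split evenly between identical transcripts give. Among the more abundant genes, Hist2h2aa1 was at 3.34 CPM in GMP, 15.2 in LSC and 37.7 in mAML. Hist2h2be followed the same order at 3.98, 12.5 and 16.9 CPM. Hist1h1c (11.7, 21.1 and 18.6 CPM) and Hist1h2bc (11.6, 17.4 and 20.5 CPM) differed by less than 2-fold between LSC and GMP. Lower in LSC were Hist1h4m (6 counts against 34) and Hist1h3h (17 against 33).

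Among the variants, H1f0 read 33.5 CPM (GMP), 179 (LSC) and 197 (mAML; LSC to GMP 2.42 [2.32, 2.52]). H2afx was at 216, 534 and 226 CPM, more than 2-fold higher in LSC than in either other library. H2afy was lower in LSC (616 CPM) than in GMP (1315) and mAML (827), with a ratio to GMP of −1.09 [−1.12, −1.07]. Its paralog H2afy2 had 82 counts in GMP and then 1 (LSC) and 2 (mAML). H1fx went from 6.71 CPM in GMP to 3.12 in LSC and 0.522 in mAML. H2afz (653, 867 and 636 CPM), H2afv (84.0, 135 and 75.1), Cenpa (85.5, 165 and 83.0) and H3f3a (650, 1005 and 1212) were within 2-fold between LSC and either other population, as were H3f3b (566, 676 and 655) and H2afj (88.8, 88.9 and 97.2).

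Between mAML and LSC, 52 members were considered, of which 1 was at least 2-fold higher in mAML (background 16.5%) and 20 at least 2-fold lower (38.5%, against 8.53%), with a median of −0.81. Most of the 20 passed the minimum through LSC alone, where they had to be high. Of the 32 that reached 1 CPM in both libraries, 1 was higher and 6 were lower. For that filter no share of all genes is given, so these counts cannot be read as an excess over all genes. The 1 higher gene was Hist2h2aa1 (1.31 [1.18, 1.45]). The lowest were Hist1h2an (8 counts against 71), H1fx (−2.34 [−3.29, −1.93]), Hist1h2ap (−2.11 [−3.18, −1.66]), Hist2h3c2 (−1.92 [−2.59, −1.54]) and Hist1h2ac (−1.72 [−2.33, −1.35]), and H2afx was lower as well (−1.24 [−1.27, −1.20]). The 5 genes that rose under A-485 held shares of 36.1% (GMP), 41.8% (LSC) and 65.1% (mAML) of the replication-dependent counts. Their sum was 32.6 CPM in GMP and 70.3 in LSC, while in GMP, LSC and mAML the other 59 genes summed to 57.8, 97.7 and 53.7 CPM. mAML and GMP differed less: of 41 members, 6 were at least 2-fold higher in mAML (14.6%, against 22.0%) and 5 lower (12.2%, against 15.3%), namely Hist2h2aa1 (3.44 [3.19, 3.83]), H1f0 (2.55 [2.45, 2.66]), the copies Hist1h2bq and Hist1h2br (2.14 [1.62, 3.27] each), Hist2h2be (2.04 [1.79, 2.39]) and Hist3h2a (1.69 [1.33, 2.22]). At the other end stood H2afy2 and H1fx, with Hist1h3h (5 counts against 33), Hist1h4m (7 against 34) and Hist1h2ag (−1.19 [−1.66, −0.85]). Mature myeloid markers summed to 387 (GMP), 1962 (LSC) and 19821 CPM (mAML), and erythroid markers to 77.9, 3.10 and 1265, and their part in these ratios was not tested.

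**Figure D5:**
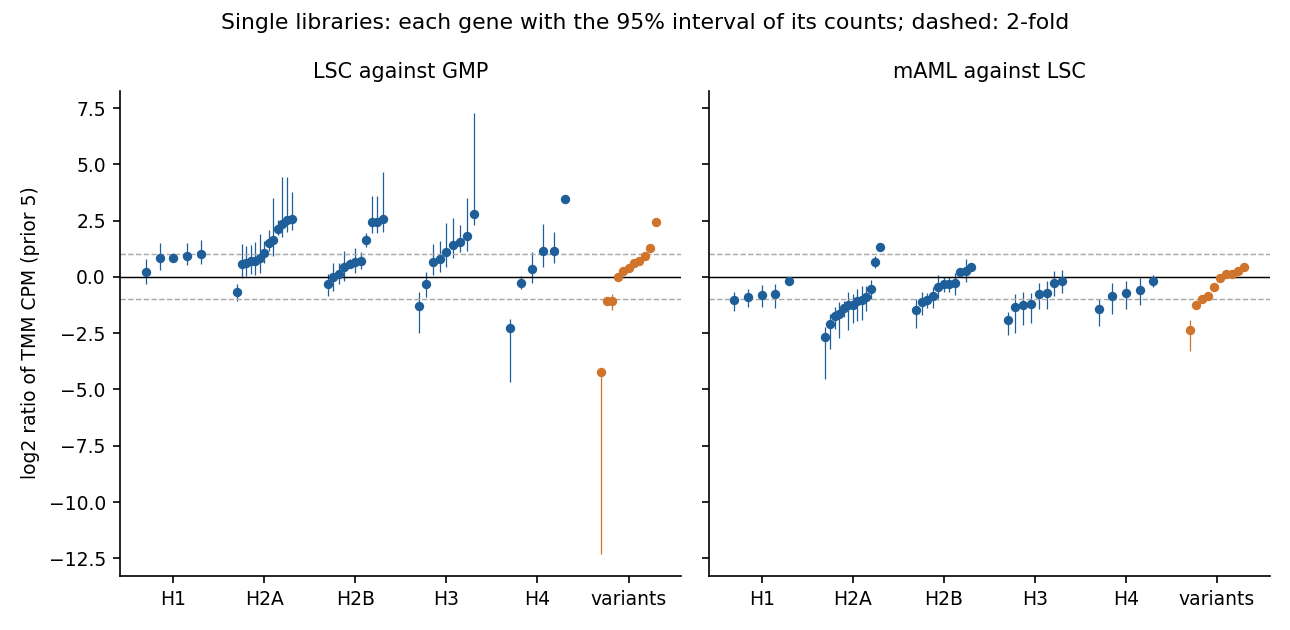
Log2 ratio of CPM with a prior count of 5 (vertical axis) for LSC against GMP (left) and mAML against LSC (right), a point for each member reaching 1 CPM in the higher library, replication-dependent genes by class in blue and variants in orange. Bars are 95% intervals of the raw count ratio, which can lie beyond the shrunken point, as for H2afy2, and Hist1h4n, with no count in GMP, has no bar. Most blue points are above 0 on the left (37 of 44) and below it on the right (37 of 42). Of all genes considered, 5652 of 11362 were above 0 for LSC against GMP and 5950 of 11521 below 0 for mAML against LSC. Both panels share the 1 LSC library, and many genes reached 1 CPM in LSC alone, where they had to be high.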

How the data were processed

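Reads were aligned and quantified by the authors to mouse build mm9, with STAR and RSEM named in the submitters' processing notes without versions. The file headers name gene-level expected counts (unscaled estimates, as deposited) and TPM, which the authors' tool scales by transcript length and depth. RSEM divides reads that fit several copies, so near-identical histone genes can exchange counts. Expected counts were rounded and tested with edgeR 4.0.16 (R 4.3.3): TMM, filterByExpr, quasi-likelihood test, time as factor, 10 libraries in 1 model, no block, Benjamini-Hochberg adjusted p under 0.05 over 11119 genes. SE is the absolute log2 change over the square root of F. The test was checked on simulated counts. Single libraries were compared by CPM ratio (prior count 5) with 95% exact binomial intervals, which cover counting error only, as do floors of 3 counts. DESeq2 1.42.0, limma 3.58.1 on log2(TPM + 1), other scalings and left-out libraries were alternatives. Members and lists were chosen with earlier results of these data known. Named were all variants, replication-dependent members at 10 CPM, the 5 largest changes each way per comparison, fixed regulators and up to 3 per list by smallest p at 72 h; the other members named were chosen after their values were seen. Reference transcripts and promoters are of a newer build than the counts and served only for sequence.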

Additional observations from a re-analysis of the deposited data

How the results depend on the processing

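Over the genes named, 4551 values kept their call, or lack of a call, under an alternative scaling, filter, tool or left-out library. Another 253 lost and 101 gained a call, and 25 were counted as changed in sign. A value called under neither setting could change sign and still stand among the 4551. With library size alone, 37 of the 49 tested members were negative at 72 h, against 41 with TMM. Depth limits members under 1 CPM, which rest on a few reads. Members called higher at 8 h numbered 8 with library size alone and 10 by limma on log2(TPM + 1); those lower numbered 3 with library size alone, 3 with the length trend removed and 10 by limma, and 2 to 6 with 1 library left out. Lower at 24 h were 16 with the length trend removed and 17 to 26 with 1 library left out. Between 72 and 8 h limma called 7 higher and 31 lower, and 10 to 18 were lower with 1 library left out. The cause of these differences was not tested; limma tested 71 members against 49.

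The replicate block changed no count by over 1.5 times: it gave 5 higher and 5 lower at 8 h, 6 and 25 at 24 h, 6 and 28 at 48 h, 7 and 27 at 72 h, and 4 and 17 for 72 h against 8 h. The replicate block with the length trend removed gave 3 lower at 8 h, 16 lower at 24 h and 7 higher for 72 h against 8 h. Replicate numbers carry no stated pairing: the deviations of same-numbered libraries correlated between −0.408 and 0.644 over 10 pairs of times.

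With a minimum of 10 CPM, LSC against GMP gave 4 higher and 1 lower, mAML against LSC 1 lower, and mAML against GMP 3 higher and 0 lower. With 1 CPM in both libraries, chosen after seeing the data, fewer genes are considered, and LSC against GMP gave 8 higher and 2 lower of 34. Under the same filter mAML against LSC gave 1 higher and 6 lower of 32, and mAML against GMP 4 higher and 1 lower of 28. At 4-fold, LSC against GMP gave 10 higher and 2 lower, and mAML against LSC 0 higher and 3 lower. No share of all genes is given for any of these settings, so their counts cannot be read as an excess.

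Summed class ratios moved by more than the replicate spread. With library size alone the log2 ratio at 72 h was 1.85 for H1, 1.16 for H2A, 1.2 for H2B and 0.95 for all replication-dependent genes, and at 8 h 0.07 for H2A, 0.75 for H2B and 0.31 for all. With summed TPM it was 2.25, 1.25 and 1.11 for H1, H2A and H2B at 72 h, and 0.10, 0.79 and 0.35 for H2A, H2B and all at 8 h.

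The 25 sign changes counted above all came from the settings with the length trend removed or TPM. On log2(TPM + 1) the median of all genes was itself 0.41, 0.43, 0.57 and 0.62 at 8, 24, 48 and 72 h against 0 h. By limma on log2(TPM + 1), H2afj was at 0.10, 0.40 and 0.64 at 24, 48 and 72 h, H2afz at 0.30 at 8 h, H3f3a at 0.32 and 0.19 and H3f3b at 0.43 and 0.48 at 48 and 72 h, Casp8ap2 at 0.57 at 72 h, Lsm10 at 0.52 at 24 h, Hira at 0.38, 0.44 and 0.32 at 24, 48 and 72 h, Anp32e at 0.36 and Nap1l1 at 0.06 at 8 h, and Sympk at 0.19, 0.15 and 0.18 at 24, 48 and 72 h. With the length trend removed, H3f3a was at 0.31 at 48 h and 0.11 at 72 h, and Lsm10 at 0.52 at 24 h. With the replicate block as well, H2afj was at 0.32 at 72 h, and H3f3a at 0.31, 0.12 and 0.33 at 48 h, at 72 h and between 72 and 8 h.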
